A study of Caenorhabditis elegans with 7 samples.

Results

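The transcripts described here encode FMRFamide-like peptides with known expression in head neurons, sensory neurons or motor neurons outside the A class, a choice that does not exclude expression in A-class neurons as well. They are flp-1, flp-7, flp-8, flp-9, flp-11, flp-12, flp-14, flp-15, flp-18 and flp-21, chosen by symbol and not by their values in these arrays. All 10 genes had at least 1 probe set annotated to them alone, which gave 15 probe sets of 22548 on the Affymetrix C. elegans array, and 10 genes of 17118. The A-class samples are 3 arrays of cells carrying unc-4::GFP that were sorted by fluorescence from dissociated embryos after 24 hours in culture, to a purity near 90% GFP-positive cells. The reference is 4 arrays of viable cells, sorted as negative for propidium iodide, from wild-type (N2) embryos treated and cultured the same way. Each hybridization began with 100 ng of total RNA, taken through 2 rounds of amplification before biotin labeling, and the replicates are given as biological. The unc-4 promoter marks the embryonic DA and SAB motor neurons together with the pharyngeal neuron I5, so the sorted population is not a single cell type. The reference contains every viable cell of the culture, A-class cells among them, and a difference is therefore a difference from the average embryonic cell.

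FMRFamide-like peptides are short neuropeptides ending in an amidated arginine and phenylalanine. They are cut from longer precursors by the proprotein convertase EGL-3, trimmed by the carboxypeptidase EGL-21, packed into dense core vesicles and released with the help of UNC-31 (CAPS). Most act on G protein-coupled receptors on other neurons, muscle or gut, and each flp gene is expressed in its own small set of neurons. In the worm flp-1 is known for its role in locomotion and is made by the AVK interneurons. flp-11 is the sleep-promoting peptide gene of the RIS interneuron. flp-18 and flp-21 encode ligands of NPR-1, the receptor that sets aggregation and foraging.

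The 7 arrays had closely matched median intensities (66.9 to 70.1 linear RMA units). The squared correlation of log2 intensities was 0.893 to 0.947 between A-class arrays, 0.938 to 0.969 between reference arrays and 0.772 to 0.876 between groups. unc-4, the gene whose promoter marks the sorted cells, had 1289, 1155 and 1386 units in A-class replicates 1 to 3, against 94.5, 92.7, 111 and 90.1 units in reference replicates 1 to 4 (log2 fold change 3.72, limma adjusted p = 2.13e-05). Of the 6 genes listed as A-class markers 3 were called higher (unc-4, unc-3 and unc-17). The list also holds acr-5, which is better known from B-class motor neurons and had a log2 fold change of 0.053.

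None of the 10 genes was called in either direction. A call required an adjusted p under 0.01 (limma, Benjamini-Hochberg over all 22548 probe sets) and a difference of at least 1.7-fold. Of the 15 probe sets 0 were called higher in A-class cells, where 2.2% of all probe sets were, and 0 were called lower, where 3.46% of all probe sets were. Against shares this small, a count of 0 of 15 says nothing particular about these genes. SAM, the permutation method of the study's own analysis, also called 0 of the 15. At an unadjusted p under 0.05, 0 of the 15 were higher and 5 were lower (33.3%), beside 17.7% and 16.7% of all probe sets. Of these 5, 3 measure flp-1, so that by representative probe set 3 of the 10 genes were lower (flp-1, flp-8 and flp-11). With the limit on the adjusted p relaxed to 0.05, 2 passed as lower, flp-1 (193561_at) and flp-11, beside 6.96% of all probe sets, and 0 passed as higher, beside 3.99%. The median log2 fold change was -0.30 over the 15 probe sets and -0.20 over the 10 genes by their representative probe set, beside 0.044 over all probe sets and 0.052 over all genes. The mean was higher in A-class arrays for 6 probe sets and lower for 9. In sorted bulk samples, fewer cells of a type and less RNA per cell cannot be told apart, which holds for every value given here.

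**Figure D1:**
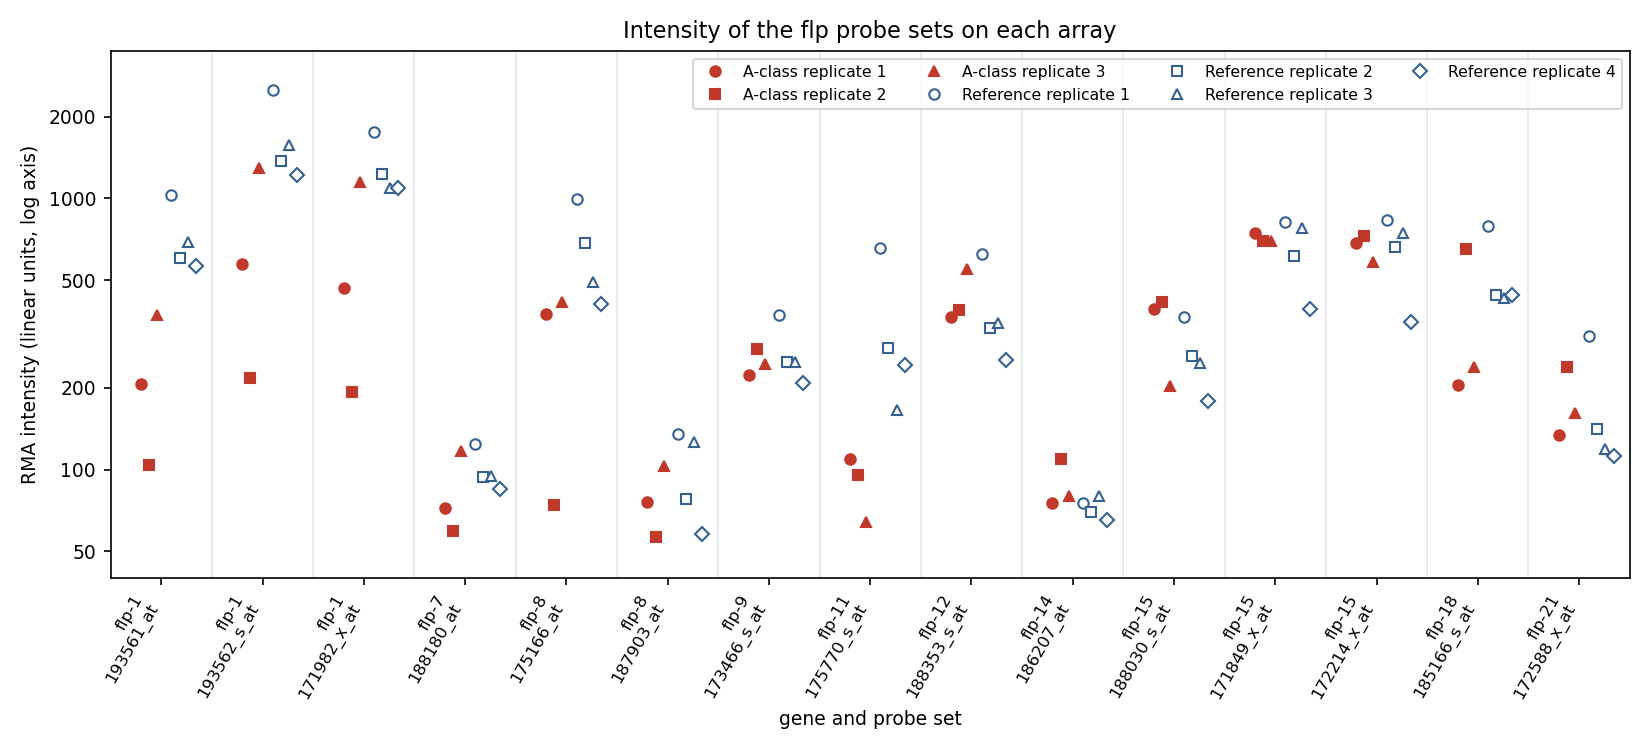
Linear RMA intensity on a log axis of each of the 15 probe sets (x axis) on each array, with A-class replicates 1 to 3 as filled red symbols and reference replicates 1 to 4 as open blue symbols. All A-class points lie below all reference points for flp-1 (193561_at) and flp-11 only, and reference replicate 1 is the highest reference array for 14 of the 15 probe sets.

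The lowest ratio to the reference was that of flp-1, which 3 probe sets measure. On the gene-specific probe set 193561_at flp-1 had 207, 104 and 372 units in A-class replicates 1 to 3, against 1025, 600.2, 689.6 and 564 units in reference replicates 1 to 4. Every A-class array lay below every reference array. The mean was 228 ± 135 units (SD, n = 3) in A-class cells and 719.5 ± 210.2 units (SD, n = 4) in the reference, and the log2 fold change was -1.80 (95% confidence interval -2.72 to -0.89, standard error 0.40, adjusted p = 0.0185 from limma). The A-class level of flp-1 was thus 0.287 of the reference, with an interval from 0.152 to 0.539, but the adjusted p was above the limit of 0.01. The probe set 193562_s_at had 572, 218 and 1295 units in A-class replicates, against 2502, 1375, 1571 and 1224 units in the reference. The probe set 171982_x_at had 467, 194 and 1152 units in A-class replicates, against 1762, 1231, 1089 and 1089 units in the reference. On both of these A-class replicate 3 reached into the range of the reference arrays, so the groups overlapped. Their log2 fold changes were -1.56 (interval -2.78 to -0.34, adjusted p = 0.0794) and -1.43 (interval -2.60 to -0.25, adjusted p = 0.0901, both from limma). The suffix of 171982_x_at marks probes shared with other sequences, so its signal may not be that of flp-1 alone.

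The 3 A-class arrays differed among themselves in flp-1 far more than most transcripts did. Replicate 2 was the lowest and replicate 3 the highest on all 3 probe sets, and the highest array was 3.57, 5.93 and 5.95 times the lowest. The standard deviation of log2 intensity over the A-class arrays was 0.92, 1.29 and 1.29, beside a median of 0.22 over all probe sets, and only 1.02%, 0.213% and 0.208% of probe sets had a larger one. Without A-class replicate 2 the log2 fold change of 193562_s_at was -0.90 and that of 171982_x_at -0.79, and without A-class replicate 3 they were -2.18 and -2.07. For 193561_at the values with 1 array left out were between -2.25 and -1.33, with adjusted p-values of 0.0107 to 0.0479 from limma. The 11 interneuron markers summed to 855, 917 and 1090 units in A-class replicates 1 to 3, but single markers took different orders. unc-42 had 169, 98.0 and 289 units in these arrays, the order of flp-1, while ttx-3 had 96.3, 240 and 96.3 units. The part of cell composition in the spread of flp-1 was not tested. fax-1, a nuclear receptor gene needed for AVK identity, had 54.9, 49.0 and 54.9 units in A-class replicates and 54.9, 56.8, 48.8 and 65.8 units in the reference (log2 fold change -0.091).

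flp-11 was the other gene without overlap. Its probe set had 109, 95.5 and 64.3 units in A-class replicates 1 to 3, against 656, 281, 166 and 242 units in reference replicates 1 to 4. Here the A-class arrays lay close together and the reference arrays were spread: the highest A-class array was 1.7 times the lowest, and the highest reference array 3.95 times the lowest. The mean was 89.6 ± 22.9 units (SD, n = 3) in A-class cells and 336 ± 218 units (SD, n = 4) in the reference. The log2 fold change was -1.75 (95% confidence interval -2.71 to -0.78, standard error 0.42, adjusted p = 0.0254 from limma), an A-class level of 0.298 of the reference. The reference standard deviation of flp-11 on the log2 scale was 0.84, and 0.386% of all probe sets had a larger one. Without reference replicate 1, its highest array, the log2 fold change was -1.36 with an adjusted p of 0.0149 from limma, and over the arrays left out in turn it was -2.02 to -1.36 with adjusted p-values of 0.0149 to 0.0922. aptf-1, the AP2 factor needed for RIS function, had 51.6, 60.4 and 74.3 units in A-class replicates and 60.4, 61.7, 52.9 and 61.9 units in the reference (log2 fold change 0.054). Among the 15 probe sets, that absence of overlap with A-class arrays on the low side was found for 2, beside 14% of all probe sets. None lay wholly on the high side, beside 16.9%.

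flp-8, which with flp-12 is known from the control of turning during male mating, was measured by 2 probe sets that gave different values. On 175166_at it had 376, 74.2 and 417 units in A-class replicates 1 to 3, against 997, 682, 490.0 and 409 units in the reference. A-class replicates 1 and 3 lay at the lower edge of the reference and replicate 2 far below. The log2 fold change was -1.42 (95% confidence interval -2.78 to -0.070, adjusted p = 0.129 from limma), and without A-class replicate 2 it was -0.62 (adjusted p = 0.258). The A-class standard deviation of 1.40 on the log2 scale was exceeded by 0.151% of all probe sets. On 187903_at flp-8 had 75.9, 56.4 and 103 units in A-class replicates, against 135, 77.7, 126 and 57.9 units in the reference, with a log2 fold change of -0.30 (adjusted p = 0.542). A-class replicate 2 was again the lowest of its group, but the groups overlapped throughout. The difference between the fold changes of the 2 probe sets was -1.12 on the log2 scale (two-sided exact permutation test over the 7 arrays, p = 0.171, adjusted p = 0.6 over 7 pairs of probe sets). The smallest p this design can give is 0.0571, so no pair could pass. For flp-1 the pairs differed by -0.13 to -0.38 and for flp-15 by 0.079 to 0.23.

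The NPR-1 ligand genes had overlapping groups, and in both of them A-class replicate 2 was the highest of its group rather than the lowest. flp-18, whose peptides also act on NPR-4 and NPR-5, had 205, 649 and 238 units in A-class replicates 1 to 3, against 788, 441, 428 and 441 units in reference replicates 1 to 4. A-class replicates 1 and 3 lay below all reference arrays and replicate 2 above 3 of the 4. The log2 fold change was -0.68 (95% confidence interval -1.60 to 0.24, adjusted p = 0.265 from limma). Without A-class replicate 2 it was -1.20 (adjusted p = 0.0282), and without A-class replicate 1 it was -0.37 (adjusted p = 0.572). flp-21 had 134, 239 and 162 units in A-class replicates, against 311, 142, 119 and 113 units in the reference, with a log2 fold change of 0.15 (interval -0.68 to 0.98, adjusted p = 0.796). Here reference replicate 1 was above every A-class array and the other reference arrays were within or below the A-class range. Its only probe set, 172588_x_at, carries the suffix (_x_at) that marks probes shared with other sequences, so its signal may not be that of flp-21 alone.

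flp-15, whose peptides act on NPR-3, had A-class levels of 1.25, 1.13 and 1.07 times the reference on its 3 probe sets. On 188030_s_at it had 390.2, 414 and 203 units in A-class replicates, against 365, 262, 248 and 179 units in the reference (log2 fold change 0.33, interval -0.37 to 1.02, adjusted p = 0.470 from limma). On 171849_x_at it had 743, 694 and 694 units in A-class replicates, against 817, 614, 780.4 and 391 units in the reference (0.18, interval -0.38 to 0.74). The probe set 172214_x_at had 684, 728 and 582 units in A-class replicates, against 831, 663, 747 and 351 units in the reference (0.10, interval -0.54 to 0.74). On both of the last, reference replicate 4 stood below every other array of either group, and without it the log2 fold changes were -0.044 and -0.17. A difference of 1.7-fold in either direction lies outside the intervals of these 2 probe sets. The interval of 188030_s_at leaves out 1.7-fold lower but not 1.7-fold higher. The 2 that leave out both directions have the _x_at suffix, as flp-21 does, and may read other sequences.

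The remaining 4 genes had 1 probe set each, and their groups overlapped. flp-9 had 223, 279 and 244 units in A-class replicates, against 372, 249, 249 and 208 units in the reference (log2 fold change -0.089, interval -0.54 to 0.36, adjusted p = 0.778 from limma). flp-12 had 365, 387 and 547 units in A-class replicates, against 623, 334, 346 and 253 units in the reference (0.21, interval -0.46 to 0.89, adjusted p = 0.632). For both genes 3 reference arrays lay near or below the A-class values and reference replicate 1 well above the rest of its group. The study lists flp-12 among the flp genes enriched in larval A-class neurons, a profile of another stage obtained by another method. flp-7, which encodes ligands of NPR-22 and is known from the control of fat stores, had 72.3, 59.6 and 117.5 units in A-class replicates, against 124, 94.0, 94.8 and 84.6 units in the reference (log2 fold change -0.30, interval -0.85 to 0.24, adjusted p = 0.392). flp-14 had 75.6, 109.8 and 80.1 units in A-class replicates, against 75.6, 69.9, 79.6 and 65.1 units in the reference (0.27, interval -0.089 to 0.63, adjusted p = 0.255). The flp-14 reference arrays were the most alike of the 15 probe sets, with a standard deviation of 0.13 on the log2 scale. In all, 4 of the 15 intervals (flp-9, flp-14 and the flp-15 probe sets 171849_x_at and 172214_x_at) leave out a 1.7-fold difference either way, while 5 leave out no difference (the 3 of flp-1, 175166_at of flp-8 and flp-11). The other 6 include no difference and also a 1.7-fold difference in at least 1 direction.

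**Figure D2:**
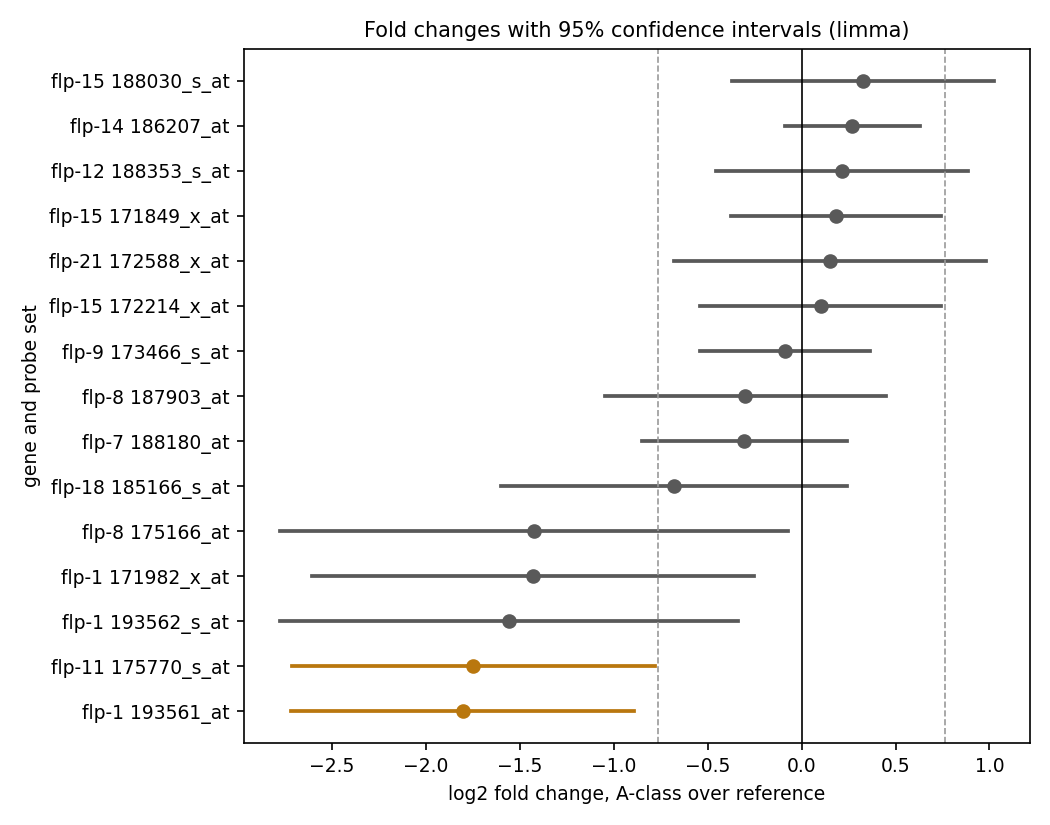
Log2 fold change (x axis, A-class over reference) of each of the 15 probe sets with its 95% confidence interval from limma, with dashed lines at 1.7-fold either way and orange marking the probe sets whose array values do not overlap between groups. The intervals of flp-1 (193561_at) and flp-11 lie wholly beyond 1.7-fold lower, and none of the 6 probe sets with a positive value has an interval that leaves out 0.

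The reference arrays took the same order for most of these genes. Reference replicate 1 was the highest of the 4 for 14 of the 15 probe sets (93.3%), beside 24.0% of all probe sets, and the exception was flp-14, where replicate 3 was highest. Reference replicate 4 was the lowest for 12 of the 15 (80.0%), beside 26.5% of all. Over the 15 probe sets, reference replicate 1 lay a median of 0.71 above the mean of the other 3 reference arrays on the log2 scale and replicate 4 lay 0.52 below, where the medians over all probe sets were 0.0082 and -0.0077. Among the other 15 flp genes measured, reference replicate 1 was highest for 11 (73.3%) and replicate 4 lowest for 13 (86.7%). Genes of peptide processing and release had replicate 1 highest for 9 of 12 (75.0%) but replicate 3, not 4, lowest for 6 of 12. Among the marker lists, only those of touch receptor neurons and hypodermis had reference replicate 1 highest and replicate 4 lowest in their sums. The touch receptor neuron markers summed to 2517, 1321, 1379 and 1141 units in reference replicates 1 to 4, with replicate 1 alone highest for 6 of the 6 genes and replicate 4 alone lowest for 1. The hypodermis markers summed to 6994, 4915, 4866 and 4082 units, with replicate 1 alone highest for 5 of 7 genes and replicate 4 alone lowest for 3. The interneuron markers summed to 980.2, 957, 825 and 884 units in the same arrays. The sums of GABA motor neuron, oxygen and carbon dioxide sensing neuron, intestine and germline markers were highest in replicate 4. That of body wall muscle markers was highest in replicate 2. The remaining lists were highest in replicate 1 but lowest in replicate 2 or 3. The part of cell composition in this order was not tested.

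**Figure D3:**
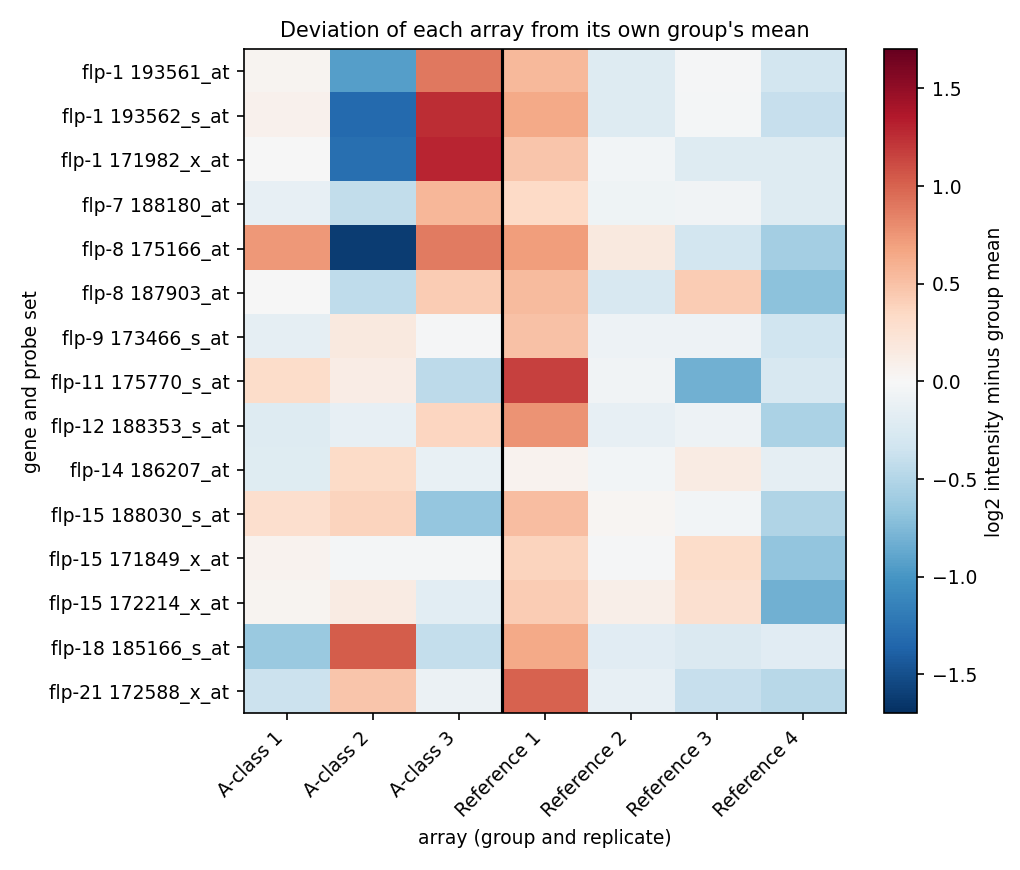
Log2 intensity minus the mean of its own group (colour) for each probe set (rows) on each array (columns), with A-class arrays left of the line and reference arrays right of it. Reference replicate 1 is above its group mean in all 15 rows, and A-class replicate 2 is the lowest of its group for flp-1, flp-7 and flp-8 and the highest for flp-18 and flp-21.

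Leaving out each array in turn called 0 of the 15 probe sets in every case. The array that moved a value most was A-class replicate 2 or 3 for flp-1, A-class replicate 2 for flp-8 (175166_at) and flp-18, and reference replicate 1 for flp-11. The records of the hybridizations name a chip lot, a day and a fluidics module. No lot and no day held both groups, so neither can be told apart from the group. Fluidics module 1 held A-class replicates 2 and 3 with reference replicates 1 and 4, and module 2 held A-class replicate 1 with reference replicate 2. Within modules 1 and 2 the log2 fold changes were -1.95 and -1.53 for flp-1 (193561_at), -1.72 and -1.27 for 193562_s_at, -1.55 and -1.40 for 171982_x_at, -2.35 and -1.37 for flp-11, and -1.86 and -0.86 for flp-8 (175166_at). All of these had the sign of the whole comparison. For flp-1 (193561_at) and flp-11 that sign was fixed in advance, since their groups do not overlap. The modules hold arrays of the whole comparison, so the shared sign is not independent evidence. With the module as a block, where reference replicate 3 is alone in its module and adds nothing to the contrast, flp-1 (193561_at) had -1.81 (adjusted p = 0.0787) and flp-11 -2.02 (adjusted p = 0.0427, both from limma). With the day as a random block the adjusted p-values were 0.0536 and 0.114.

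**Figure D4:**
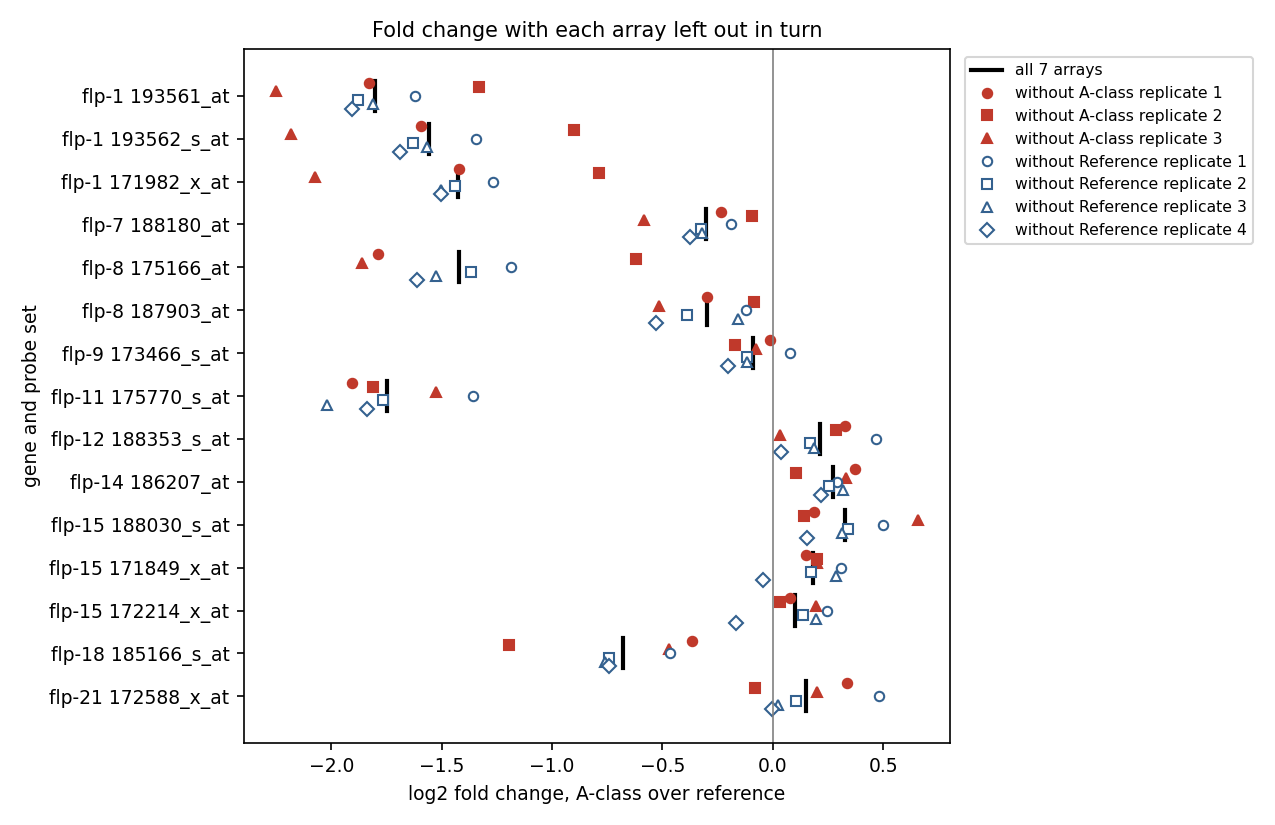
Log2 fold change (x axis, A-class over reference) of each probe set with all 7 arrays (black bar) and with each array left out in turn, filled red for an A-class and open blue for a reference array left out. flp-1, flp-11 and flp-8 stay on the negative side in every case, while flp-9, flp-21 and the flp-15 probe sets 171849_x_at and 172214_x_at have values on both sides of 0. For flp-1 (193561_at) and flp-11, whose groups do not overlap, leaving out an array could not turn the sign.

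The marker lists show which other cells' transcripts moved with the groups. The touch receptor neuron markers summed to 552 to 605 units in A-class arrays and 1141 to 2517 units in the reference; 1 of the 6 (mec-7, a tubulin of these cells) was called lower, with a log2 fold change of -1.72 (adjusted p = 0.00642 from limma), and SAM called 3 of them lower. The GABA motor neuron markers summed to 296 to 362 units in A-class arrays and 407 to 535 units in the reference, and 0 of the 4 were called by limma or SAM, with 2 lower at an unadjusted p under 0.05. The hypodermis markers summed to 2280 to 3510 units in A-class arrays and 4082 to 6994 units in the reference, with 0 of the 7 measured called by limma, 1 higher and 1 lower by SAM, and 1 higher and 5 lower at an unadjusted p under 0.05. The sums of the remaining neuronal lists overlapped between groups. Interneuron markers gave 855 to 1090 units in A-class arrays and 825 to 980.2 units in the reference (0 of 11 called). Ciliated sensory neuron markers gave 1047 to 1403 units in A-class arrays and 1011 to 1396 units in the reference (0 of 10 called). Markers of oxygen and carbon dioxide sensing neurons gave 406 to 453 units in A-class arrays and 424 to 447 units in the reference (0 of 9 called). Those of glutamatergic and monoaminergic neurons gave 608 to 826 units in A-class arrays and 693 to 763 units in the reference (0 of 8 called). Over these 4 lists, 1 interneuron marker was higher and 1 ciliated neuron marker lower at an unadjusted p under 0.05, and SAM called the last alone. In the ciliated sums daf-19 alone had 467 to 737 units in A-class arrays and 416 to 715 units in the reference. Of the 10 ciliated markers 4 were among the dimmest 30% of all probe sets, as were 5 of the 9 oxygen and carbon dioxide sensing markers. Overlapping sums of these lists therefore do not show that such cells were equally present in both groups. Body wall muscle, pharyngeal muscle and intestine markers had 0 called by limma, with 5 of 8, 2 of 6 and 1 of 8 lower and 1, 0 and 1 higher at an unadjusted p under 0.05, and SAM called 1 body wall muscle marker lower. Each marker was read on its representative probe set, which for lev-11 was among the dimmest 30% of all. On another probe set, lev-11 and unc-89 of body wall muscle were called lower (log2 fold changes -1.67 and -1.53, limma adjusted p 0.00551 and 0.00545). So was sqt-3 of hypodermis (-1.65, limma adjusted p 0.00929). The remaining probe sets of these genes were not called. Those called for lev-11 and sqt-3 carry the _x_at suffix and may read other sequences. Of the 7 germline markers 1 (gld-1) was called higher. No marker of any list was at 0 on any array, since RMA gives every probe set a positive value.

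The other members of the family were spread more widely than the 10 genes described. Of 15 measured, 3 were called higher (flp-13, flp-32 and flp-2, log2 fold changes 3.16, 2.98 and 2.39) and 3 lower (flp-10, flp-3 and flp-6, -1.88, -1.51 and -1.07), with a median of -0.16. flp-4 (1.87, limma adjusted p = 0.0102) and flp-5 (0.96, 0.0323) were not called, though all their A-class arrays lay above all reference arrays. The study names both among the peptide genes enriched in embryonic A-class neurons. Over genes by their representative probe set, 2.2% of all were called higher and 3.3% lower. flp-10 had 70.1, 54.3 and 72.0 units in A-class replicates, against 259, 288, 192 and 227 units in the reference, a tight pair of groups and a standard error of 0.17 for a log2 fold change near those of flp-1 and flp-11, whose standard errors were 0.40 and 0.42. Adding the fluidics module ended the calls of flp-2, flp-3 and flp-6 (limma adjusted p 0.0133, 0.0184 and 0.0335). Leaving out single arrays also ended the call of flp-3 (A-class replicate 3 or reference replicates 2 or 3, highest adjusted p 0.0169) and, for every array but reference replicate 1, of flp-6 (highest adjusted p 0.0349). SAM called 4 higher and 3 lower.

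**Figure D5:**
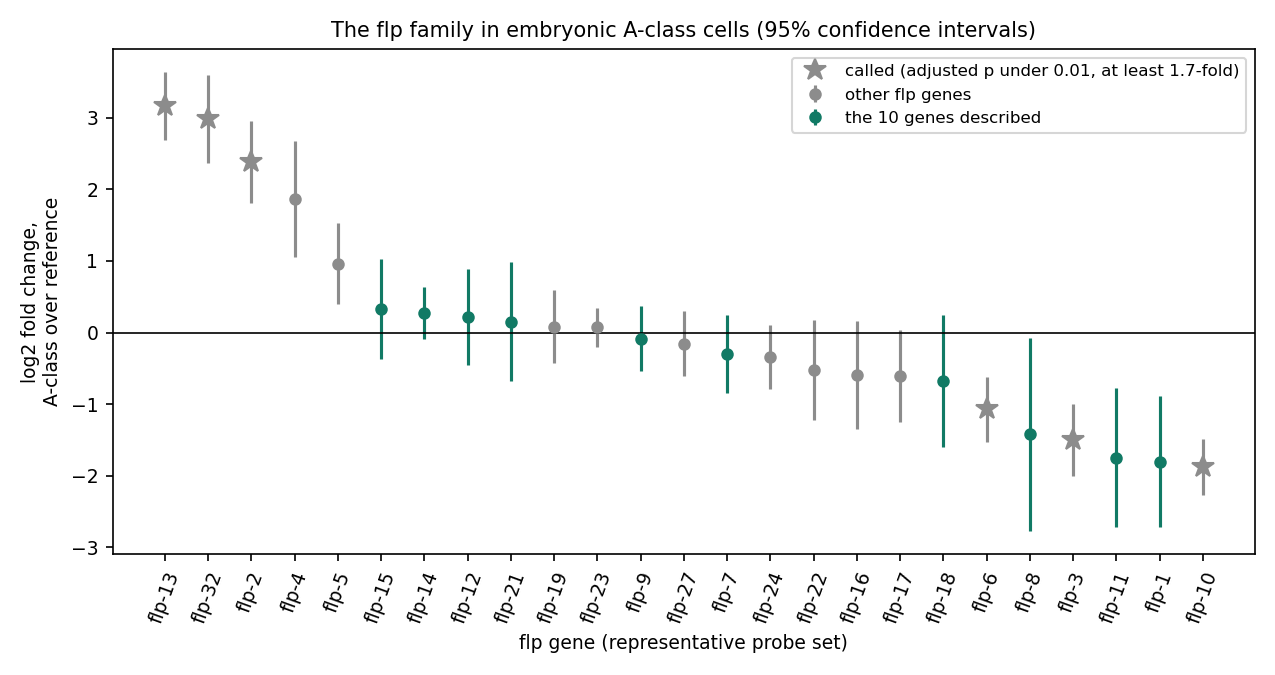
Log2 fold change (y axis, A-class over reference) with 95% confidence intervals from limma for the 25 flp genes measured, each by its representative probe set, in order of the fold change. The 10 genes described (green) lie between flp-5 and flp-10 in the order, and stars mark the 6 called genes, all of them other flp genes.

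Receptors of FMRFamide-like peptides gave 0 called of 14 in either direction by limma and by SAM, with a median log2 fold change of -0.014. At an unadjusted p under 0.05, 1 was higher and 1 lower. The largest differences were those of npr-3, the receptor of flp-15 peptides, and frpr-3, a receptor of flp-11 peptides. npr-3 had 103, 59.4 and 119.8 units in A-class replicates, against 167, 155, 128 and 121 units in the reference (log2 fold change -0.65, limma adjusted p = 0.0999), and its groups did not overlap. frpr-3 had 68.8, 30.5 and 61.1 units in A-class replicates, against 81.5, 65.2, 52.9 and 65.2 units in the reference (-0.38, adjusted p = 0.372). npr-1, the receptor of flp-18 and flp-21 peptides, had a log2 fold change of 0.0052 and npr-22, the receptor of flp-7 peptides, -0.21.

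The genes that process and release peptides gave 1 called higher and 1 called lower of 12, with a median log2 fold change of 0.096. The higher one was unc-31 (CAPS, dense core vesicle release), with 78.6, 125.5 and 69.4 units in A-class replicates, against 38.9, 41.9, 28.5 and 35.6 units in the reference (log2 fold change 1.30, adjusted p = 0.00706 from limma). The lower one was bli-4, a proprotein convertase best known for processing cuticle collagens, with 81.8, 95.6 and 56.5 units in A-class replicates, against 178, 167, 152 and 152 units in the reference (-1.09, adjusted p = 0.00643). The hypodermis sums given above were also lower in A-class arrays, and the part of hypodermal cells in the bli-4 value was not tested. Both calls were lost with the module as a block (adjusted p 0.0417 and 0.0373). They were lost too on leaving out any 1 array for unc-31 (adjusted p 0.0113 to 0.0219) and any array other than A-class replicate 2 for bli-4 (up to 0.0262). The alternatives are given for this bli-4 probe set alone. egl-3 had a log2 fold change of -0.17 and egl-21 one of 0.43. sbt-1, the 7B2-like partner of EGL-3, had 1814, 1595 and 2404 units in A-class replicates, against 1355, 736, 1055 and 629 units in the reference (1.08, adjusted p = 0.0300, not called). Every A-class array of sbt-1 lay above every reference array.

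The genes closest to flp-1 and flp-11 over the 7 arrays were found by the root mean square distance between log2 profiles, each centred on its own mean. For flp-1 (193561_at) these were C25E10.12 (distance 0.19), Y73F4A.2 (0.20) and faxc-1 (0.20), of which Y73F4A.2 (log2 fold change -1.92) and faxc-1 (-1.81) were called lower. faxc-1 had 198, 129 and 324 units in A-class replicates, against 969.7, 586, 877 and 504 units in the reference, the same order of A-class arrays as flp-1. Its adjusted p was 0.00998, just inside the limit that flp-1 (0.0185) missed. For the flp-1 probe set 193562_s_at they were hsp-12.2 (0.18), F10E9.1 (0.21) and T23B3.6 (0.29), and for flp-11 they were gpx-5 (0.20), inx-12 (0.29) and pana-1 (0.30). gpx-5, a glutathione peroxidase gene, had 42.3, 47.8 and 34.8 units in A-class replicates, against 299.8, 137, 100.4 and 100.1 units in the reference, with reference replicate 1 highest as for flp-11. These distances describe likeness over 7 shared arrays.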

How the data were processed

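RNA of 3 A-class and 4 reference samples was hybridized to 7 Affymetrix arrays; groups and replicate numbers came from the sample titles. The authors deposited 1 RMA intensity per probe set and array, on a linear scale; which RMA version was run, and over which arrays, is not given in the sources used here. All value columns belonged to a sample (0 did not). Hybridization records served only to test batches. Deposited intensities were converted to log2 with no pseudocount and no filter, and groups were compared with limma 3.58.1 (R 4.3.3; lmFit, eBayes) without covariates. The limit of 1% is the false discovery rate that the study's methods name for its other neural profiles, and the limit of 1.7-fold is the smallest fold it lists for this one. Fold changes in intensity can understate true ratios of dim probe sets, since background remains in the signal. Of the 15 probe sets 5 had the same value on several arrays, as did 37.0% of all. The number of arrays limits the precision.

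Gene names came from the platform annotation (20766 probe sets with 1 symbol, 887 with several, 895 with none; only the first were used), and all 10 genes matched RefSeq by gene ID. A gene in a list is represented by its _at probe set, then _s_at, then others, then the brightest. The 10 genes, the lists and the tests were chosen with earlier results of these data known. Named were every probe set of the 10 genes, called genes of the related lists (the 2 largest changes where none was called) and the 3 closest profiles of the 3 probe sets with the largest change. egl-3, egl-21, sbt-1, npr-1, npr-22, unc-3, unc-17, acr-5, fax-1, unc-42, ttx-3, aptf-1, mec-7, gld-1, flp-4 and flp-5 were named after their values were seen. Limma and SAM (35 arrangements) were tested on simulated data. Alternatives were SAM, other limits, normalizations and offsets, leaving out the dimmest 30% of probe sets, replicate and batch blocks, and leaving out each array. Tables used Python 3.11.15, pandas 2.3.3, numpy 2.4.6, scipy 1.17.1 and matplotlib 3.10.9.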

Additional observations from a re-analysis of the deposited data

Results flagged for a closer look

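Dixon's criterion for 4 values was applied on the log2 scale to the reference arrays of the 15 probe sets described and of further named genes. Chance alone meets it in about 1 in 20 groups, so single cases among so many can arise by chance. In 2 of the named genes a single reference array stood apart from the other 3. The first was flp-18, where reference replicate 1 had 788 units and the others 428 to 441 units. Without it the log2 fold change of flp-18 was -0.46 (adjusted p = 0.451 from limma). The second was flp-2, where reference replicate 1 had 254 units and the others 124 to 133 units, against 753 to 855 units in A-class arrays. In both it was reference replicate 1, the array that was also the highest reference array for 14 of the 15 probe sets described.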

How the results depend on the processing

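Over 20 alternatives for each of the 15 probe sets (19 of them tested), 0 were called at an adjusted p under 0.01; at an adjusted p under 0.05, 2 were lower. Of the 300 values 290 kept their sign and 10 did not. Many of the values could not differ. SAM, other limits, another variance estimate and leaving out dim probe sets change the test but not the fold change. The replicate block gave the fold changes found without reference replicate 4, and the fluidics module block those found without reference replicate 3. The tally therefore overstates how often the sign was put to a test. The sign turned for flp-9 after quantile normalization once more (0.041), and with 1 array left out its values were -0.20 to 0.077, the last without reference replicate 1. With 1 array left out the values of 171849_x_at were -0.044 to 0.31, of 172214_x_at -0.17 to 0.25 and of flp-21 -0.082 to 0.48, all of them negative without reference replicate 4, and the lowest value of flp-21 without A-class replicate 2. With the replicate number as a block, where reference replicate 4 has no partner and adds nothing, these 3 were -0.044, -0.17 and -0.0060. Within module 2 (1 array of each group, no test) 171849_x_at had 0.27 and flp-21 -0.076. The cause was not tested.

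Counts over all probe sets (496 higher, 781 lower) were 899 and 1570 at an adjusted p under 0.05, 239 and 363 for log2 of the value plus 50, 89 and 112 with the replicate block, 91 and 131 with the module block, 0 and 0 by limma within module 1 (4 arrays; 2374 and 2614 at an unadjusted p under 0.05), and 179 and 257 with the day as a random block. With 1 array left out they were 176 to 468 higher and 239 to 769 lower. Deviations of same-numbered arrays correlated at 0.03, -0.12 and -0.05, so the numbers pair nothing. With the replicate block flp-1 (193561_at) had -1.91 (adjusted p = 0.0271 from limma) and flp-11 -1.84 (0.0172).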
